A study of Homo sapiens with 4 samples.

Results

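Chromosome 17 is one of the gene-rich human chromosomes. Its Hi-C contacts are described here over 393 of the 14444 bins of the genome into which the deposited maps are divided, which are all the bins on this chromosome, and over the pairs among them. In Hi-C, fixed chromatin is cut, in this case by HindIII, neighbouring ends are joined and the junctions are sequenced, and each bin of the maps spans about 200 kb. The study asked how contacts differ between growing cells and cells in oncogene-induced senescence (OIS), and how much of this depends on HMGA1. All 4 maps are of IMR90, an established line of normal human fibroblasts from lung, carrying pLNCX2 ER:HRAS G12V, an oncogenic RAS fused to an oestrogen receptor domain that is switched on by 4OHT. In the Grow and Grow-shA1 groups RAS was not switched on, and in the OIS and OIS-shA1 groups 4OHT was given at 100 nM for 6 days. In the shA1 groups a hairpin against HMGA1 was expressed from the retroviral vector pMSCV miR shHMGA1, and the level of HMGA1 cannot be read from contact maps. Both shA1 groups have 2 samples each, pooled into 1 map per group. The Grow and OIS maps were made before, in the same laboratory, and have no sample here, so that in any comparison of a map with shA1 and a map without it the hairpin and the data set cannot be told apart. The cells and treatment of these earlier maps are taken from the study, which calls them matching, and not from sample labels. With 1 map per group no test was possible, and an SD given with a difference is the spread over pairs of bins or over bins of 1 map, not over replicates.

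The nucleus separates active, gene-dense chromatin (the A compartment) from inactive, gene-poor chromatin (the B compartment), so that stretches of a kind touch each other even across long distances along a chromosome. HMGA1 is a small chromatin protein whose AT-hooks hold the minor groove of AT-rich DNA, and it is a component of the senescence-associated heterochromatin foci into which inactive chromatin gathers in many senescent fibroblasts. Gene-rich chromosomes have long A stretches broken by few AT-rich B stretches.

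The deposited value of a pair is a score that sets its contact against other pairs equally far apart, with positive scores for pairs that touch more than pairs at that distance usually do. Whether it is a logarithm, and of which base, is not stated, and differences are therefore given in score units and not as folds. Bins with under 50% of their pairs listed in any map were left out, and 381 bins remained, 108 on the short arm (17p) and 273 on the long arm (17q). The other 12 include the bin at the gap of the centromere. Their largest group is 4 bins near the end of 17q, chr17:79396690-80200826, where 38 protein-coding genes start, so these gene-dense bins are not described. Distal pairs are those over 2 Mb apart, and local pairs are the rest. Means are over pairs that have a value in each of the 4 maps, and the share of distal pairs that a map lists on this chromosome was 91.3% in Grow, 87.2% in Grow-shA1, 77.6% in OIS and 77.5% in OIS-shA1. The maps in OIS were thus sparser than those in Grow, and the part of this in the differences was not tested.

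Bin edges follow the cuts of HindIII, whose site is shown in capitals at 4 edges that the results turn on: the edge of the largest B stretch of 17q, the edge of a gene-free stretch inside it, and the bins that hold SOX9 and COL1A1. Each 30-base run is from the GRCh37 reference, plus strand, 5′ to 3′.
Start of the CA10 domain (chr17:49200446-49200475): tgtcttgattttAAGCTTctgccagttatc
Start of the stretch between CA10 and KIF2B (chr17:50396837-50396866): tctctatctctcAAGCTTcagtgaacttaa
Start of the SOX9 bin (chr17:70002110-70002139): aggctagggctgAAGCTTggttggggagag
Start of the COL1A1 bin (chr17:48202682-48202711): agcatcccctaaAAGCTTtcaatcatcaac

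On 17q the loss of contact described below goes with base composition, and 3 further runs, each from the middle of a bin, are shown for that reason. They come from the bin of 17q and the bin of 17p with the largest loss between OIS and Grow, and from the bin of 17p with the largest gain. Capitals mark runs of at least 4 bases of A or of T together, the kind of sequence that AT-hooks hold.
Largest loss on 17q (chr17:50700656-50700685): tgtccttgaggctagaacataggacTTTTT
Largest loss on 17p (chr17:2300517-2300546): ccgggagAAAAccagccctgcgctcccgct
Largest gain on 17p (chr17:17698634-17698663): tgggcttccaggaggaggacccccctgggg

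Of their 30 bases, 18, 9 and 8 are A or T, in that order. A run of this size is an example and describes no bin as a whole.

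The label gene-rich held in the data. Chromosome 17 carries 1189 protein-coding genes, 14.6 per Mb, which ranks 2 of the 23 chromosomes compared (22 autosomes and X) against a median of 5.70 over the other 22. Its GC content of 45.4% ranks 3, against a median of 40.5%, and 51.2% of its kept bins were in the A compartment in Grow, which ranks 2, against a median of 40.0%. Both arms are gene-rich. The 22.3 Mb of 17p have 15.6 genes per Mb and a GC content of 46.0% (SD over bins 4.51), and the 55.9 Mb of 17q have 15.1 genes per Mb and a GC content of 45.2% (SD over bins 5.13).

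The compartment score of a bin was taken from the first principal component of the correlation matrix of the chromosome, with A bins positive. On 17p only 42 of 108 bins were A in Grow, although the arm is as gene-dense as 17q, and on 17q 153 of 273 bins (56.0%) were A. A bins held more genes than B bins on both arms, 4.90 against 2.09 per bin on 17p and 3.88 against 1.69 on 17q, and had a higher GC content, 48.9% against 44.2% on 17p and 47.0% against 43.0% on 17q. The A bins of 17q numbered 171 in OIS, 162 in Grow-shA1 and 181 in OIS-shA1 (62.6%, 59.3% and 66.3%). On 17p they numbered 44, 45 and 46, so the A share was higher than in Grow in the other 3 maps on both arms, and most on 17q.

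The order of the bins changed little. The scores of OIS and Grow had r = 0.982 over the 108 bins of 17p and 0.950 over the 273 bins of 17q, and those of OIS-shA1 and Grow-shA1 had 0.969 and 0.952. The tie between compartment score and GC content was closer on 17p than on 17q. On 17p r was 0.568 in Grow, 0.572 in OIS, 0.550 in Grow-shA1 and 0.589 in OIS-shA1. On 17q it was 0.403, 0.276, 0.377 and 0.261 in the same order, so that it was lower in both OIS maps on this arm alone. Neighbouring bins share contacts and base composition, and these correlations over bins are a description. The share of variance in the first component was 35.3% in Grow, 30.3% in Grow-shA1, 19.9% in OIS and 18.4% in OIS-shA1, which rank 12, 15, 22 and 22 of 23 chromosomes from the highest.

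**Figure D1:**
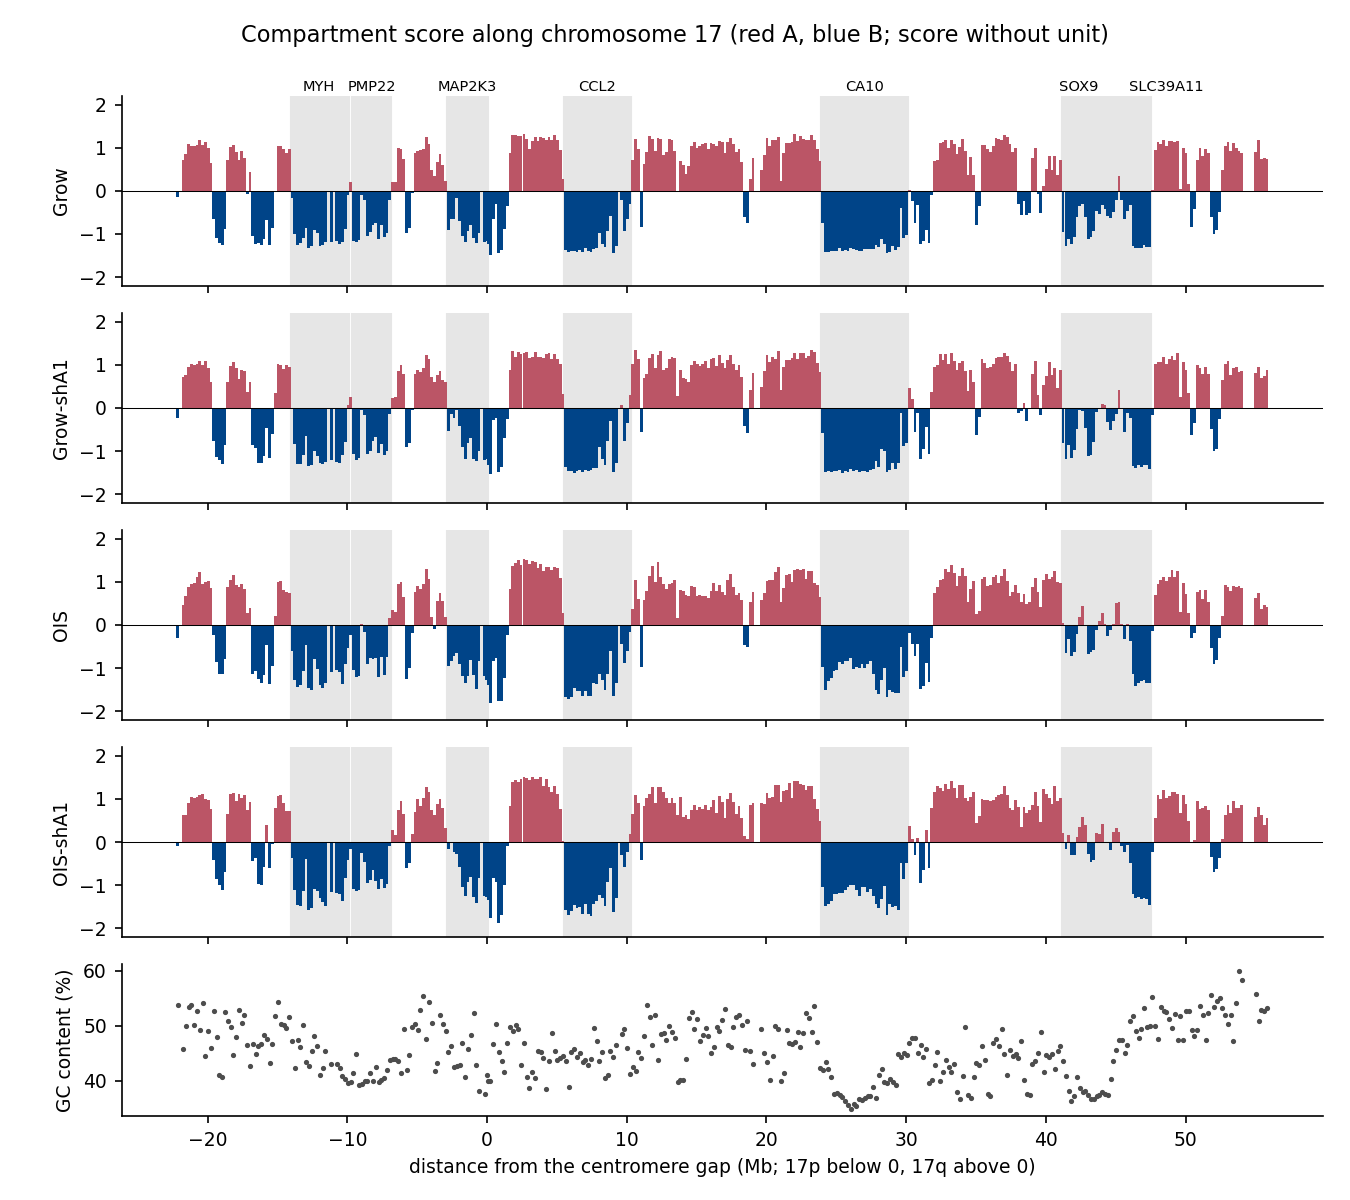
Compartment score (positive A, red, and negative B, blue) and GC content of each kept bin against position along chromosome 17 in Mb, with a panel for each of the 4 maps and shading over the 7 B domains, named by a gene in each. The CA10 domain has the lowest mean score of the 7 in Grow and Grow-shA1 and the CCL2 domain in OIS and OIS-shA1, while the score of the SOX9 domain moves from -0.713 in Grow to 0.052 in OIS-shA1.

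Distal contact within chromosome 17 was lower in OIS. Over all 43273 distal pairs the mean difference was -0.120 between OIS and Grow and -0.105 between OIS-shA1 and Grow-shA1. The arms differed in this. On 17q the differences were -0.152 and -0.143, on 17p -0.0272 and -0.0920, and between the arms -0.0937 and -0.0445. The largest differences on 17q were at 10 to 20 Mb, -0.207 and -0.202. Settings that set the maps to a common level at each distance are given with the dependence on processing.

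The loss was largest between B bins of 17q. Their distal mean score was 0.747 in Grow, 0.368 in OIS, 0.630 in Grow-shA1 and 0.204 in OIS-shA1 over 5653 pairs. The difference between OIS and Grow was -0.378 (SD over pairs 0.680) and that between OIS-shA1 and Grow-shA1 was -0.426 (SD over pairs 0.723), so B-B contact was lower with RAS in both pairs of maps. Both differences rest on the B bins of Grow and on the same pairs, and are not independent. With compartments taken from each map they were smaller, -0.200 and -0.238. The A-A mean of 17q was 0.332 in Grow, 0.326 in OIS, 0.335 in Grow-shA1 and 0.333 in OIS-shA1, nearly level. The A-B mean was -0.270 in Grow, -0.431 in OIS, -0.278 in Grow-shA1 and -0.392 in OIS-shA1, lower in both OIS maps.

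The loss on 17q had a distance. At 10 to 20 Mb the B-B mean was 0.829 in Grow, 0.174 in OIS, 0.742 in Grow-shA1 and -0.00631 in OIS-shA1 over 1804 pairs, so that the mean was low in OIS and near 0 in OIS-shA1. The differences with RAS, without and with shA1, were -0.151 and -0.108 at 2 to 5 Mb, -0.295 and -0.354 at 5 to 10 Mb, -0.655 and -0.749 at 10 to 20 Mb, and -0.270 and -0.311 at 20 to 50 Mb. The pairs of B domains of the arm with the largest losses, described next, lie 16.0 and 19.4 Mb apart.

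On 17p the distal B-B mean was 0.896 in Grow, 0.878 in OIS, 0.802 in Grow-shA1 and 0.645 in OIS-shA1. The difference between OIS and Grow was -0.0176 and that between OIS-shA1 and Grow-shA1 was -0.157, while OIS-shA1 lay below OIS by a difference of -0.233. The difference between OIS and Grow on 17p ran from -0.165 to 0.113 over the settings tried, so it had no settled direction, while that on 17q was below 0 in all 12. Between the arms the B-B mean was 0.361 in Grow, 0.170 in OIS, 0.253 in Grow-shA1 and 0.111 in OIS-shA1, lower in each OIS map than in its Grow map.

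Compartment strength, which sets contact of like bins (A-A and B-B, averaged) against contact of unlike bins (A-B), was 0.717 in Grow, 0.688 in OIS, 0.671 in Grow-shA1 and 0.591 in OIS-shA1 over the chromosome. The difference between OIS and Grow of -0.0291 ranked 23 of 23 chromosomes, whose other 22 had a median of 0.0854, and the difference with shA1 of -0.0796 ranked 19. A-B pairs, on which strength rests in part, were listed at 85.1% in Grow and 65.1% in OIS, against 98.3% and 92.5% for B-B pairs. The part of this in strength was not tested. The sign of the difference between OIS and Grow was not stable for the chromosome or for an arm. Over the chromosome it ran from -0.216 to 0.0933, below 0 in 9 of 12 settings. Over 12 settings the difference between OIS and Grow ran from -0.0971 to 0.354 on 17p, where 9 were above 0, and from -0.260 to 0.123 on 17q, where 3 were. OIS-shA1 was below OIS in 12 of 12 settings on both arms, a comparison that also compares the data sets. The B-B part of the change was lower on this chromosome than on most: the difference between OIS and Grow over all its distal B-B pairs, -0.249, ranked 20 of 23 against a median of -0.0962.

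Contacts within and between stretches of a compartment showed where the loss lay. Runs of at least 10 consecutive kept bins of one sign in Grow were called domains, a rule chosen after values were seen, and gave 7 B and 10 A domains. On 17p the B domains were the MYH domain (chr17:8198367-12399165, 19 bins, GC 44%, 38 genes), which holds the skeletal myosin heavy chains, the PMP22 domain (chr17:12600161-15399999, 14 bins, GC 41.1%, 9 genes), named for a protein of peripheral myelin, and the MAP2K3 domain (chr17:19401778-22262874, 14 bins, GC 43.8%, 15 genes), named for a kinase that activates p38. On 17q they were the CCL2 domain (chr17:30798226-35603051, 23 bins, GC 44.6%, 63 genes), with the ion channel gene ASIC2 and the CC chemokine and Schlafen clusters, the CA10 domain (chr17:49200459-55398031, 31 bins, GC 39.2%, 24 genes), with a carbonic anhydrase-related gene, the kinesin KIF2B and the BMP antagonist NOG, the SOX9 domain (chr17:66398985-70402836, 20 bins, GC 39%, 12 genes), with a cluster of ABCA lipid transporters and the cartilage regulator SOX9, and the SLC39A11 domain (chr17:70599414-72799611, 11 bins, GC 49.1%, 26 genes), with a zinc transporter and CD300 immune receptors. The CA10 and SOX9 domains are the most AT-rich of the 7.

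The CA10 domain lost the most contact with other B bins. Its distal score with B bins outside it was 0.738 in Grow, 0.216 in OIS, 0.678 in Grow-shA1 and 0.0779 in OIS-shA1 over 4189 pairs. The difference with RAS was -0.522 (SD over pairs 0.652) without shA1 and -0.600 (SD over pairs 0.688) with it. All 31 of its bins were lower in OIS than in Grow, with a median difference of -0.59 and a range from -0.81 to -0.13, and 27 were lower by at least 0.2 (87.1%, against 26.4% of all kept bins of the genome). With shA1 30 were (96.8%, against 23.3%), with a median of -0.56.

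Contact of the CA10 domain with A bins was lower as well. It was -0.462 in Grow, -0.865 in OIS, -0.504 in Grow-shA1 and -0.854 in OIS-shA1, a difference of -0.403 without and -0.350 with shA1. The domain was thus more set apart from the rest of the chromosome in both OIS maps, over the 2011 pairs with A bins that all 4 maps list. On 17q as a whole 9641 of 17715 possible distal A-B pairs were listed in all 4. Its compartment score stayed far on the B side, at -1.28 in Grow, -1.13 in OIS, -1.30 in Grow-shA1 and -1.19 in OIS-shA1. Pairs of this domain were listed less often in OIS, 91.8% in Grow, 88.4% in Grow-shA1, 72.7% in OIS and 70.2% in OIS-shA1. The part of this in the difference was not tested.

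Local contact inside the CA10 domain was lower in OIS, and less so with shA1. Its mean over 243 pairs was 0.666 in Grow, 0.182 in OIS, 0.644 in Grow-shA1 and 0.428 in OIS-shA1. The difference with RAS was -0.484 (SD over pairs 0.361) without shA1 and -0.216 (SD over pairs 0.292) with it, and OIS-shA1 lay above OIS by 0.245, in which hairpin and data set cannot be told apart. The difference faded with distance: it was -0.63 without and -0.35 with shA1 up to 0.5 Mb, -0.52 and -0.26 at 0.5 to 1 Mb, -0.39 and -0.12 at 1 to 2 Mb, -0.30 and -0.07 at 2 to 4 Mb, and 0.04 and 0.08 beyond 4 Mb. Between OIS and Grow a like shift, from up to 0.5 Mb to 1 to 2 Mb, was found in the SOX9 (-0.32 to 0.18), PMP22 (-0.24 to 0.10), MAP2K3 (-0.21 to 0.08) and MYH (-0.10 to -0.02) domains. The CCL2 domain went from 0.15 to 0.35 and the SLC39A11 domain from 0.23 to 0.01. None of the other 6 B domains of chromosome 17 had a local loss of this size. Their differences between OIS and Grow ran from -0.0755 to 0.265. Over all its local B-B pairs chromosome 17 had -0.0757, rank 4 of 23 from the highest. The median of the other chromosomes was -0.228, and the 23 ran from -0.417 to 0.209. Local B-B loss was thus common elsewhere, and the contrast holds within chromosome 17. Local B-B contact in OIS-shA1 was above OIS by a median of 0.116 on the other chromosomes, against 0.00263 here.

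The lost contacts joined the CA10 domain to the B domains on either side of it on 17q. With the SOX9 domain, 16.0 Mb away on average, its score was 0.920 in Grow, 0.0921 in OIS, 0.724 in Grow-shA1 and -0.296 in OIS-shA1 over 588 pairs, differences of -0.828 (SD over pairs 0.504) and -1.02 (SD over pairs 0.569). With the SLC39A11 domain, at 19.4 Mb, it was 1.45 in Grow, 0.381 in OIS, 1.54 in Grow-shA1 and 0.362 in OIS-shA1 over 318 pairs, differences of -1.07 (SD 0.771) and -1.17 (SD 0.738). With the CCL2 domain, at 19.2 Mb on the other side, it was 1.04 in Grow, 0.601 in OIS, 1.12 in Grow-shA1 and 0.569 in OIS-shA1. The contact with the SLC39A11 domain had been among the strongest of the B domains of 17q in Grow.

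Not every pair of B domains lost contact. The CCL2 and SLC39A11 domains stood at 0.908 in Grow, 0.998 in OIS, 0.734 in Grow-shA1 and 0.761 in OIS-shA1, differences of 0.0901 and 0.0272. On 17p the MYH and MAP2K3 domains stood at 1.62 in Grow, 1.64 in OIS, 1.47 in Grow-shA1 and 1.35 in OIS-shA1, the strongest contact of 2 B domains there, and their difference between OIS and Grow was 0.0189. All 6 pairs of the CA10 domain with another B domain were lower with RAS in both comparisons. Losses away from it were found too: the CCL2 domain had -0.385 with the MYH domain, -0.419 with the PMP22 domain and -0.429 with the SOX9 domain between OIS and Grow.

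**Figure D2:**
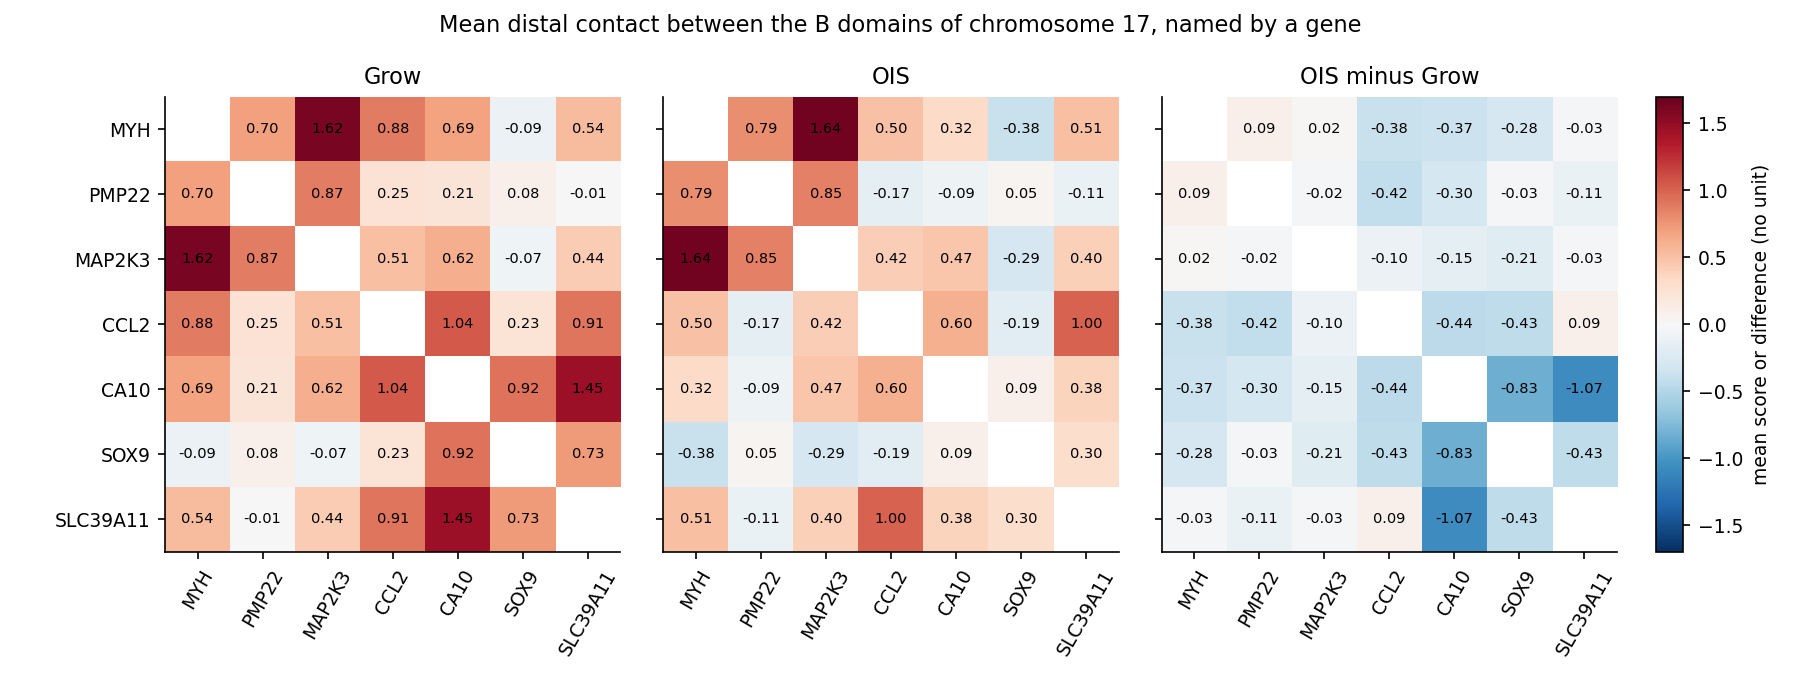
Mean distal score of each pair of the 7 B domains of chromosome 17 in Grow, in OIS and as the difference between OIS and Grow, with domains in order along the chromosome on both axes and the score as colour. The pairs of the CA10 domain with the SOX9 and SLC39A11 domains have the largest differences, -0.828 and -1.07, and the pair of the CCL2 and SLC39A11 domains has 0.0901.

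The SOX9 domain stood nearer the A compartment in OIS, with more contact among its own distant bins. Its score was -0.713 in Grow, -0.167 in OIS, -0.515 in Grow-shA1 and 0.0523 in OIS-shA1. Of its 20 bins, 8 went from B to A between Grow and OIS and 10 between Grow-shA1 and OIS-shA1. Over the genome 16.0% and 13.6% of B bins did so. The scores of the domain in OIS and OIS-shA1 lie near 0. With scores near 0 left out, only 5 and 4 bins of the whole chromosome went from B to A. Its distal score with other B bins was 0.387 in Grow, -0.0181 in OIS, 0.221 in Grow-shA1 and -0.121 in OIS-shA1. All 20 bins were lower by at least 0.2 in OIS than in Grow (100%, against 26.4% of all kept bins of the genome). In OIS-shA1 16 were, against Grow-shA1 (80%, against 23.3%). With A bins it stood at -0.192 in Grow, -0.229 in OIS, -0.181 in Grow-shA1 and -0.182 in OIS-shA1, nearly level. Distal contact among its own bins was 1.35 in Grow, 1.83 in OIS, 1.25 in Grow-shA1 and 1.85 in OIS-shA1, higher with RAS by 0.485 without and 0.598 with shA1. Its mean local contact was 1.36 in Grow, 1.32 in OIS, 1.24 in Grow-shA1 and 1.33 in OIS-shA1, nearly level between Grow and OIS. That mean joins a difference between OIS and Grow of -0.32 up to 0.5 Mb with one of 0.18 at 1 to 2 Mb.

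In the other B domains the loss of contact with other B bins was larger on 17q than on 17p. The SLC39A11 domain had 0.802 in Grow, 0.481 in OIS, 0.713 in Grow-shA1 and 0.365 in OIS-shA1 with other B bins, and 11 and 10 of its 11 bins were lower by at least 0.2 without and with shA1. The CCL2 domain had 0.715 in Grow, 0.448 in OIS, 0.595 in Grow-shA1 and 0.311 in OIS-shA1, with 15 and 17 of its 23 bins past that limit, while its own local contact was higher with RAS, 0.342 in Grow, 0.608 in OIS, 0.253 in Grow-shA1 and 0.488 in OIS-shA1. On 17p the counts were 5 and 5 of 19 bins in the MYH domain, 3 and 0 of 14 in the PMP22 domain and 1 and 4 of 14 in the MAP2K3 domain. Over the genome the limit was passed by 26.4% and 23.3% of bins, and the domains of 17p lay near these shares or below, from 7.14% to 26.3% without and from 0% to 28.6% with shA1. The chemokine-bearing CCL2 domain and the CA10 domain thus went opposite ways in their own local contact, by 0.265 and -0.484.

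**Figure D3:**
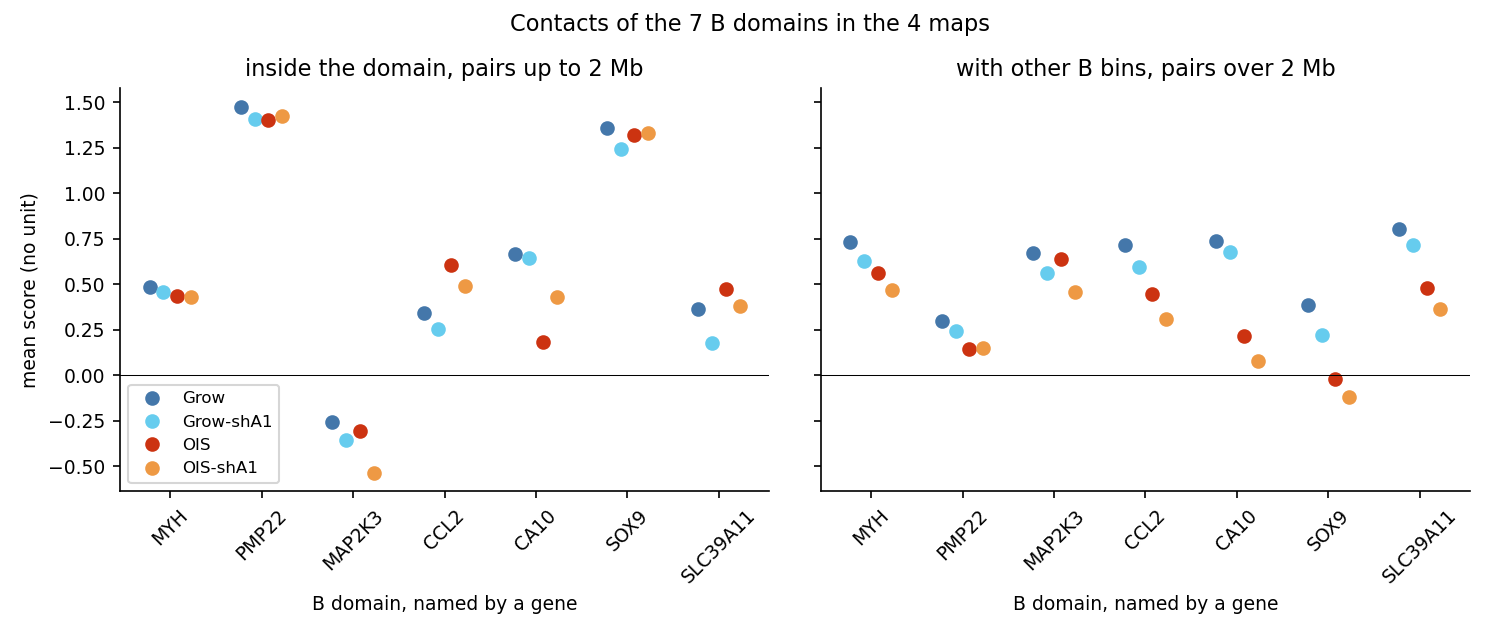
Mean score of each of the 7 B domains in the 4 maps, with local pairs of its own bins in one panel and distal pairs with other B bins in the other. The CA10 domain has the lowest local score in OIS relative to Grow (0.182 against 0.666) and the largest distal loss in both OIS maps, -0.522 and -0.600.

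The few gene-poor stretches of the chromosome were described apart from the rest. A block is a run of at least 3 kept bins in which no protein-coding gene starts, and 9 blocks hold 42 bins, 1 on 17p and 8 on 17q. Block 4 (chr17:50396850-51800014, 7 bins, GC 36.1%) lies between the starts of CA10 and KIF2B and overlaps no protein-coding gene, and block 5 (chr17:52002238-52802361, 4 bins, GC 37%) lies between KIF2B and TOM1L1. Block 8 (chr17:68196543-70002122, 9 bins, GC 37.6%) is the long stretch before SOX9, which is known for distant SOX9 enhancers. Block 2 (chr17:31400226-32402475, 5 bins) overlaps ASIC2, block 3 (chr17:49402272-50200499, 4 bins) CA10, block 6 (chr17:53998893-54606436, 3 bins) ANKFN1, block 7 (chr17:58798397-59403605, 3 bins) BCAS3 and block 9 (chr17:70198634-71006892, 4 bins) SLC39A11, all of them genes so long that their starts fall outside, and block 1 (chr17:14403443-14997876, 3 bins) is on 17p near PMP22. Block 7 was in the A compartment, with a score of 1.02 in Grow.

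The gene-poor blocks lost contact with each other. Their mean distal score was 0.737 in Grow, 0.260 in OIS, 0.702 in Grow-shA1 and 0.148 in OIS-shA1 over 562 pairs, differences of -0.477 (SD over pairs 0.625) and -0.554, against -0.143 and -0.169 for B bins outside blocks with each other. Block pairs lie mostly on 17q, and on 17q alone the differences were -0.548 and -0.646 for blocks, against -0.23 and -0.30 for B bins outside them. Blocks 3 to 6 lie in the CA10 domain and take part in most of the 459 block pairs of 17q, so this loss is largely that of the domain. Among the blocks of 17q outside it, blocks 7 and 8 had 0.159 between OIS and Grow, and the other pairs compared had -0.457 to -0.340. Blocks 4 and 5 lost the most contact with B bins: -0.711 and -0.757 between OIS and Grow, against -0.512 to -0.105 for the other 7. With A bins block 4 stood at -0.903 in Grow, -1.60 in OIS, -0.968 in Grow-shA1 and -1.46 in OIS-shA1, the most set apart of the 9. These means rest on the 219 pairs that all 4 maps list, and many pairs of B with A bins are not listed in each map.

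Inside blocks 3, 4 and 5 contact was lower in OIS than in the other maps. Within block 4 it was 0.556 in Grow, -0.267 in OIS, 0.616 in Grow-shA1 and 0.331 in OIS-shA1. Within block 5 it was 0.581 in Grow, -0.378 in OIS, 0.646 in Grow-shA1 and 0.0935 in OIS-shA1, and within block 3 it was -0.0108 in Grow, -0.453 in OIS, 0.0752 in Grow-shA1 and -0.0595 in OIS-shA1. In all 3, which lie in the CA10 domain, OIS-shA1 stood between OIS and both Grow maps. Block 6, in the same domain, differed, with 0.876 in Grow, 0.629 in OIS, 0.702 in Grow-shA1 and 0.490 in OIS-shA1. These means rest on 6 pairs each in blocks 3 and 5, 21 in block 4 and 3 in block 6. Outside the domain, block 1 went from 1.53 in Grow to 1.22 in OIS and block 7 from 1.27 to 0.947, with OIS-shA1 at 1.20 and 0.934. Within block 8, before SOX9, contact was 1.5 in Grow, 1.33 in OIS, 1.33 in Grow-shA1 and 1.29 in OIS-shA1, and within block 2, in ASIC2, it was 0.610 in Grow, 0.669 in OIS, 0.614 in Grow-shA1 and 0.793 in OIS-shA1, with no such dip in OIS.

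Pairs of blocks inside the CA10 domain that lie over 2 Mb apart kept or gained contact. Nearer blocks of the domain were not compared with each other, and local contact inside the domain was lower in OIS, as given above. Blocks 3 and 5, 2.60 Mb apart on either side of block 4, stood at 2.89 in Grow, 2.85 in OIS, 2.81 in Grow-shA1 and 3.15 in OIS-shA1. Blocks 3 and 6, 4.50 Mb apart, stood at 1.74 in Grow, 2.47 in OIS, 1.69 in Grow-shA1 and 2.52 in OIS-shA1, higher with RAS by 0.72 without and 0.83 with shA1. The pairs named next, with a block outside the domain, were lower with RAS. Blocks 2 and 3, in ASIC2 and CA10 and 17.9 Mb apart, were at 2.00 in Grow, 1.66 in OIS, 2.27 in Grow-shA1 and 1.80 in OIS-shA1, differences of -0.339 and -0.470. With block 9, in SLC39A11, block 3 had -1.08 and -1.01, block 4 -1.24 and -0.99, and block 5 -1.13 and -1.59, so that all 3 lost contact with it.

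For each bin the mean distal score with B bins was compared between maps, and a difference of at least 0.2 was counted. Between OIS and Grow 150 of 381 bins (39.4%) were lower, against 26.4% of the kept bins of the genome, and 8 (2.10%) were higher, against 4.37%. By arm 30 of 108 bins on 17p (27.8%) and 120 of 273 on 17q (44%) were lower, so the share on 17p was near that of the genome. Between OIS-shA1 and Grow-shA1 142 (37.3%) were lower, against 23.3%, with 30 on 17p and 112 on 17q (41.0%), and 9 (2.36%) were higher, against 5.98%. Lower contact with RAS was thus more frequent on this chromosome than over the genome in both comparisons, through 17q. Between OIS-shA1 and OIS 52 (13.6%) were lower, against 9.05%, and 15 (3.94%) higher, against 3.32%. Here 17p led, with 24 of its bins lower (22.2%) against 28 on 17q (10.3%). Between Grow-shA1 and Grow 23 (6.04%) were lower, against 4.23%, and 3 (0.787%) higher, against 0.45%.

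The mean difference over bins was -0.0971 on 17p (SD over bins 0.147) and -0.205 on 17q (SD 0.192) between OIS and Grow, and -0.108 (SD 0.148) and -0.177 (SD 0.218) between OIS-shA1 and Grow-shA1. The median over all kept bins of the genome was -0.0873 and -0.0654. On 17q the loss went with base composition, with r = 0.536 (rho = 0.457) between GC content and the difference over 273 bins without shA1 and 0.503 (rho = 0.440) with it. On 17p it hardly did, with r = 0.139 and 0.149 over 108 bins. Bins of an arm share map, neighbours and depth, and HindIII sites, which set how many ends a bin offers, themselves go with GC content (r = -0.494 on 17p and -0.717 on 17q).

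Runs of at least 6 bases of A or T together, where AT-hooks can bind, covered 11.3% of the bases of 17p and 12.1% of those of 17q. They covered 16.2% of the CA10 domain and 16.6% of the SOX9 domain, 8.11% of the SLC39A11 domain, 19.8% of block 4, 18.4% of block 5 and 18% of block 8, within a range over kept bins from 3.25% to 21.2%. The SLC39A11 domain, which lost contact with the CA10 domain, is thus poor in such runs. An A domain with 16.1% shows that such runs are not found in B domains alone.

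**Figure D4:**
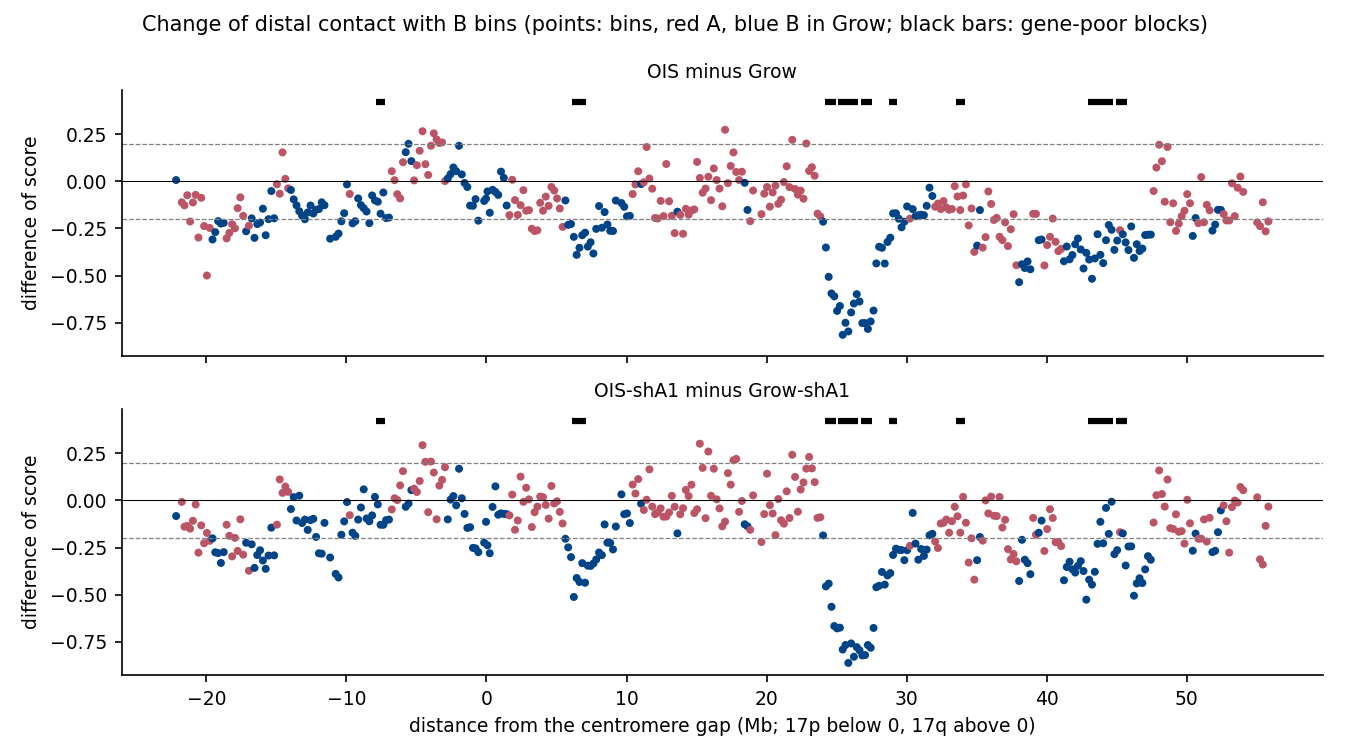
Difference of the mean distal score with B bins for each kept bin against position along chromosome 17 in Mb, for OIS against Grow in one panel and OIS-shA1 against Grow-shA1 in the other, with dashed lines at 0.2 to either side of 0 and black bars over the 9 gene-poor blocks. The bins of the CA10 domain form the deepest trough in both panels, down to -0.81 without shA1.

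On 17q the bins with the largest losses held no gene. The largest loss between OIS and Grow on 17q was in chr17:50601411-50799929, in block 4, whose score with B bins was 0.756 in Grow, -0.0577 in OIS, 0.803 in Grow-shA1 and 0.0125 in OIS-shA1, differences of -0.81 and -0.79. The bin chr17:51000453-51203221 in the same block had -0.80 and -0.86. On 17p the largest loss was in chr17:2200955-2400107, where SRR, SMG6 and the MYC antagonist MNT start, at -0.50 without and -0.17 with shA1. The largest gains were 0.27 and 0.29 in chr17:17596695-17800601, the bin of SREBF1, a regulator of lipid synthesis, on 17p, and 0.22 and 0.24 in chr17:46996818-47199380, the bin of the mRNA-binding protein gene IGF2BP1, on 17q. A higher value of 0.27 in chr17:42199429-42400935, with HDAC5 and UBTF, rests on 11 pairs and was -0.11 with shA1. The gains at SREBF1 and IGF2BP1 and the losses in block 4 were of like size without and with shA1.

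Few bins changed compartment. Between OIS and Grow 24 of 381 bins went from B to A (6.30%), against 9.49% of the kept bins of the genome, 4 of them on 17p and 20 on 17q, and 4 went from A to B (1.05%), against 0.678%. Between OIS-shA1 and Grow-shA1 25 went from B to A (6.56%), against 8.03%, 3 on 17p and 22 on 17q, and 5 from A to B (1.31%), against 1.13%. Chromosome 17 has fewer B bins to start from, and of its B bins alone 12.9% and 14.4% went to A with RAS, against 16.0% and 13.6% over the genome. Between OIS-shA1 and OIS 17 went from B to A (4.46%), against 1.54%, and 5 from A to B (1.31%), against 3.14%. Between Grow-shA1 and Grow 13 went from B to A (3.41%), against 1.82%, and 1 from A to B (0.262%), against 1.5%. Few of the changes with RAS were between scores clear of 0: with both scores over the 10th percentile of absolute scores, 5 and 4 bins were counted from B to A in place of 24 and 25.

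13 bins went from B to A with RAS both without and with shA1, all on 17q. They are the pair of bins with EFCAB3, METTL2A and the chromatin kinase gene TLK2 (chr17:60196742-60597445, score -0.58 in Grow, 0.29 in OIS, -0.42 in Grow-shA1 and 0.52 in OIS-shA1), the pair with AXIN2, an inhibitor of Wnt signalling (chr17:63199435-63605392, -0.43, 0.64, -0.09 and 0.58 in the same order), the pair with the centrosomal gene CEP112 (chr17:63800340-64199127, -0.53, 0.51, -0.16 and 0.71), a pair before SOX9 with no gene start (chr17:67596892-67994415, -0.33, 0.31, -0.06 and 0.46), and the pair with SOX9 (chr17:70002123-70402836, -0.34, 0.27, -0.22 and 0.28). The 3 others are single bins, with CACNG5 and CACNG4, with WIPI1, PRKAR1A and FAM20A, and with no gene start at chr17:69000554-69201591. The single bin that went from A to B in both comparisons holds MYOCD, a coactivator of smooth muscle genes, on 17p (0.20, -0.22, 0.26 and -0.15).

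Genes of 10 lists that bear on senescence, fibroblasts and the gene clusters of the chromosome were followed by the bin that holds them: 143 genes in 48 kept bins, 28 of them A in Grow, with 1 gene, P4HB, in a bin that was left out. Between OIS and Grow 42 of the 48 bins were lower in contact with B bins, 17 by at least 0.2, and none of the 6 higher ones by as much. The 17 are 35.4% of the bins, against 26.4% over the genome and 39.4% over chromosome 17, so the listed genes were called no more often than their chromosome. The 48 bins had a median of -0.17 against -0.0873 over all kept bins of the genome, -0.119 over those of 17p and -0.180 over those of 17q. Most bins of each arm were thus lower, and a count of lower bins, here or in the lists below, sets no list apart by itself. With shA1 38 were lower, 18 by at least 0.2 (37.5%, against 23.3% and 37.3%), and 10 higher, 2 by at least 0.2, with a median of -0.13 against -0.0654. The genes in a bin share 1 value, and expression was not measured in these maps.

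The lowest values were beside gene-poor stretches, a list chosen with the values of these stretches known. All 6 of their bins were lower and 5 by at least 0.2 (83.3%, against 26.4% of the genome and 44% of 17q), with a median of -0.35. CA10 had -0.69 without and -0.68 with shA1, KIF2B -0.64 and -0.79, and SOX9 -0.36 and -0.29. PMP22 on 17p, whose duplication causes a peripheral neuropathy, had -0.19 and -0.10.

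Chemokine genes, whose products are secreted by many senescent fibroblasts, lay in 6 bins, 5 lower and 3 by at least 0.2 between OIS and Grow (50%, against 26.4% of the genome and 44% of 17q). The bin of CCL2 (chr17:32402476-32599863), the monocyte chemoattractant, had -0.35 and -0.35, and its compartment score was -1.40 in Grow, -1.64 in OIS, -1.47 in Grow-shA1 and -1.67 in OIS-shA1, so it lay deep in B in every map. CCL1 had -0.32 and -0.35, CCL5 -0.26 and -0.26, and CCL3 -0.10 and -0.14. Outside the cluster CXCL16 on 17p had -0.08 and -0.10, and CSF3, which codes for a granulocyte growth factor, 0.09 and -0.09.

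Cell cycle genes lay in 7 bins, 6 lower and 2 by at least 0.2 between OIS and Grow (28.6%, near the 26.4% of the genome), with a median of -0.18. With shA1 5 were lower, 4 by at least 0.2 (57.1%, against 23.3% of the genome and 37.3% of chromosome 17), with a median of -0.20. KPNA2, a nuclear import receptor, had -0.37 and -0.22, and TK1, the thymidine kinase of dividing cells, -0.22 and -0.20. The bin that holds both CDC6, a replication licensing factor, and TOP2A, the topoisomerase of dividing cells, had -0.18 and 0.02, and the mitotic kinase gene AURKB -0.04 and 0.05. No bin of this list was higher by 0.2 between OIS and Grow.

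Matrix and fibroblast genes lay in 10 bins, 8 lower and 2 by at least 0.2 (20%, below the 26.4% of the genome). MRC2, a collagen uptake receptor, had -0.35 and -0.21, and SERPINF1, a secreted inhibitor of vessel growth, -0.30 and -0.28. COL1A1, the main collagen gene of fibroblasts, in an A bin whose edge is printed above, had 0.06 and 0.23, and the signal transducer STAT3, of the signalling list, 0.02 and 0.30. The signalling list as a whole had 6 of 7 bins lower and 1 by at least 0.2 (14.3%, against 26.4%), that of MAP2K4, a kinase of stress signalling, with -0.21 and -0.18.

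Gene clusters with tissue-restricted expression did not move as one. The olfactory receptor cluster of 17p lay in 4 bins with -0.27 to -0.18 between OIS and Grow and -0.33 to -0.26 with shA1, and 3 of the 4 were past the limit without shA1 (75%, against 26.4% of the genome and 27.8% of 17p). The skeletal myosin genes MYH1 and MYH4 had -0.11 and -0.15 without and -0.28 and -0.28 with shA1, against medians of -0.119 and -0.109 over the bins of 17p. Of the 2 myosin bins 0 were past the limit without and 2 with shA1, against 27.8% of 17p in each comparison. The keratin clusters lay in 5 bins, all lower and 1 by at least 0.2 (20%, against 26.4%), with a median of -0.177 against -0.180 over the bins of 17q. The HOXB cluster, which patterns the body axis, was near 0, with a median of 0.0244. The growth hormone cluster, in the bin of GH1, had -0.29 and 0.02.

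**Figure D5:**
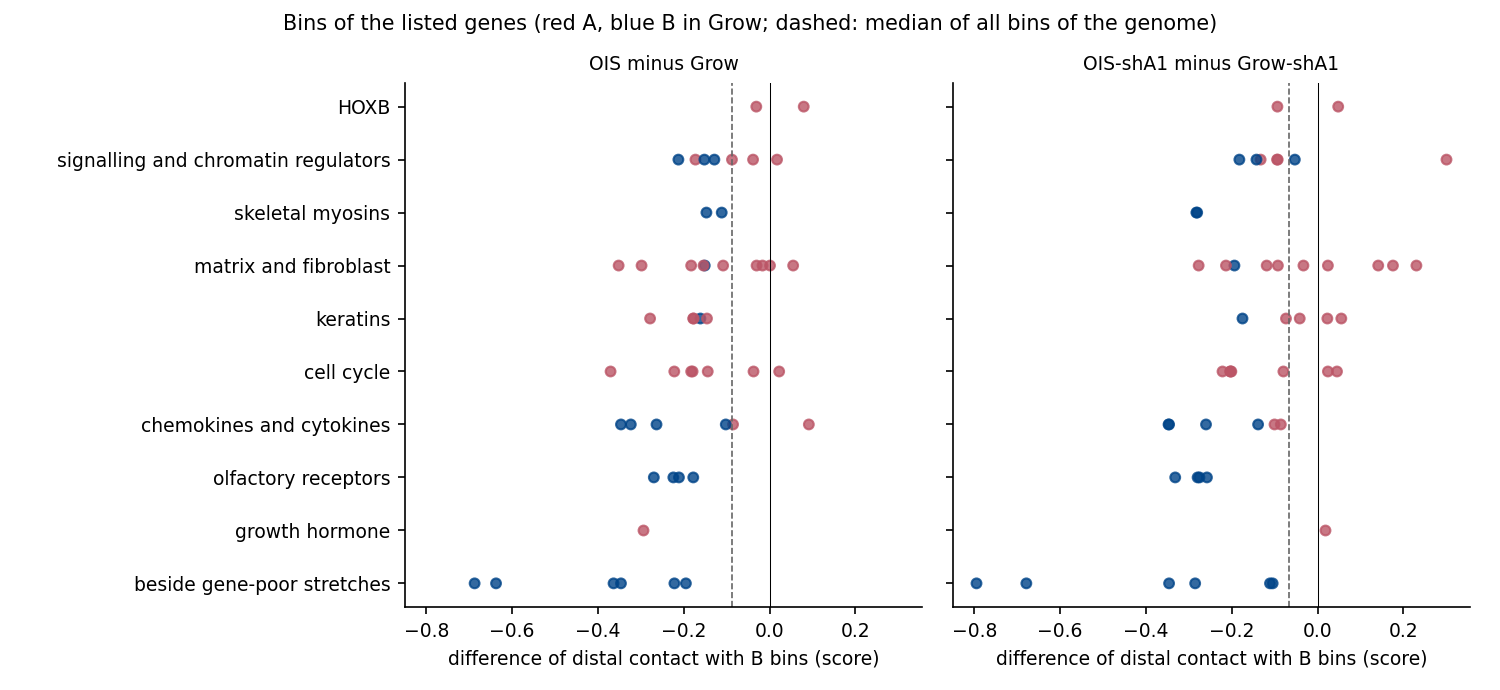
Difference of the mean distal score with B bins, for each bin that holds genes of the 10 lists, by list, for OIS against Grow and OIS-shA1 against Grow-shA1, with a dashed line at the median of all kept bins of the genome. The bins beside gene-poor stretches reach lowest, with CA10 and KIF2B at -0.69 and -0.64 without shA1.

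Contacts that were gained did not gather in the blocks. The 433 distal pairs with the largest increase, of 43273, were joined into a network, and its k-core, the part in which each bin keeps at least k links, was taken as a measure of how tightly the gained contacts hang together. The largest k was 3 for OIS against Grow, with 56 bins, 8 on 17p and 48 on 17q. Of these bins 5 were B in Grow, against 186 of the 381 kept bins, and 0 were in gene-poor blocks, against 42 of the 381. Their GC content was 48.3% against 45.4% for the chromosome. The core for OIS-shA1 against Grow-shA1 also had k = 3, with 44 bins, 10 of them B and 1 in a block, and a GC content of 47.1%. With k = 2, the core for OIS-shA1 against OIS held 8 block bins of 201 and that for Grow-shA1 against Grow 11 of 201. A-A pairs made up 62.6% and 54.7% of the links against 32.6% of all pairs. In the comparisons that do not contrast RAS they made up 56.8% (Grow-shA1 against Grow) and 51.5% (OIS-shA1 against OIS). The excess of A-A links was thus not particular to the comparisons with RAS, and its source was not tested. After averaging the maps 3 by 3 bins the A-A shares with RAS, without and with shA1, were 48.3% and 51.7%. Over the settings tried the largest k with RAS was 2 to 4.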

How the data were processed

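Hi-C maps of IMR90 cells in 4 conditions were used. Per the methods and labels, the authors used HiC-Pro with hg19, filtered artefacts and duplicate reads, counted reads in bins of 200 kb, normalised the matrices by iterative correction and corrected them for distance. The deposited values are one score for each pair of bins of the same chromosome and map, with no read counts, so depth and counting error are unknown and the share of pairs listed stands for depth. Replicates were pooled by the authors into 1 map per condition, and 0 pairs join different chromosomes.

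All 393 bins of chromosome 17 were taken from the deposited bin list. Arms were parted at the longest run of N in the GRCh37 reference, which is the build of the files (chromosome ends match), and gene starts are protein-coding genes of GENCODE v44 lifted to GRCh37. Compartments are those of Grow in every map unless stated. A bin was compared by its mean score over at least 10 distal pairs with B bins that have a value in all 4 maps. Named bins hold the start of a gene of 10 lists, a gene-poor block, or the 2 largest losses and gains per arm. The members, lists and settings were chosen with earlier results of these data known, and the domains and their contacts after values were seen. Group membership came from the labels, and the Grow and OIS maps were matched by their names. No test was made. Alternatives changed 1 choice at a time. Scripts were tested on simulated data and used Python 3.11.15, numpy 2.4.6, pandas 2.3.3, scipy 1.17.1, networkx 3.6.1 and matplotlib 3.10.9.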

Additional observations from a re-analysis of the deposited data

Results flagged for a closer look

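In 4 bins of the gene lists the difference with RAS in distal contact with B bins had opposite directions without and with shA1, and both values were at least 0.2 apart. With 1 map per condition the difference between the comparisons was not tested, and hairpin and data set cannot be told apart in it. The bin of CDC6, TOP2A and IGFBP4 had -0.183 without and 0.0242 with shA1, a gap of 0.207. The bin of BIRC5, an inhibitor of cell death needed for mitosis, had 0.0225 and -0.203, a gap of -0.225. The bin of KRTAP9-4, in the cluster of keratin-associated genes, had -0.146 and 0.0554, a gap of 0.201. The bin of GH1, in the growth hormone cluster, had -0.294 and 0.0182, a gap of 0.312, and its contact in OIS-shA1 was above that in OIS by 0.35. The 4 bins are among 48 compared.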

How the results depend on the processing

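The lower distal B-B contact of 17q kept its direction in 12 of 12 settings, from -0.431 to -0.200 between OIS and Grow and from -0.562 to -0.238 between OIS-shA1 and Grow-shA1. The loss between gene-poor blocks kept its direction in 9 of 9, from -0.681 to -0.329 and from -0.974 to -0.427, and the losses of the CA10 domain with the SOX9 and SLC39A11 domains in 7 of 7. Inside the CA10 domain up to 2 Mb the range over 5 settings chosen after seeing the data was -0.519 to -0.359 and -0.279 to -0.147. Bins lower by at least 0.2 numbered 157 and 148 with pairs over 5 Mb. In what follows the first value is OIS minus Grow and the second OIS-shA1 minus Grow-shA1, and the cause was not tested.

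With the mean at each distance set alike in the 4 maps, B-B contact was 0.113 and -0.0361 on 17p and -0.246 and -0.308 on 17q, contact between blocks -0.329 and -0.427, that of the CA10 with the SOX9 domain -0.656 and -0.853 and that with the SLC39A11 domain -0.901 and -1.03. With scores limited to the 1st to 99th percentile the last was -1.0 with shA1. With scores divided by their SD, strength of the chromosome was -0.130 and B-B contact of 17p -0.165 between OIS and Grow. With all pairs of each map strength was -0.116 between OIS and Grow, and with unlisted pairs at 0 it was -0.216 and -0.207 and contact between blocks -0.447 with shA1. With pairs over 5 Mb contact between blocks was -0.667 with shA1, and with blocks of at least 5 bins it was -0.681 and -0.974. B-B contact of 17q was -0.200 and -0.238 with compartments taken from each map and -0.254 and -0.258 with classes from GC content. With the 20% highest and lowest scores, strength was 0.0933 between OIS and Grow, B-B contact with shA1 was -0.314 on 17p and -0.562 on 17q, and B-B contact of 17q between Grow-shA1 and Grow was 0.0263, against -0.117 for all B bins. With changes of sign counted over the 10th percentile of size, 5 and 4 bins went from B to A. Of 436 values recomputed, 336 moved by less than the SD of the same difference over 23 chromosomes (counts by less than 1.5 times) and the others by more. The sign turned in 22, of which 21 were under 0.1 in size as reported, mostly strength of the arms or the chromosome and B-B contact of 17p.

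No paired analysis was possible because the deposited maps pool the replicates of a condition, and for the same reason leaving out a replicate was not run. The maps in OIS list fewer pairs than those in Grow, read counts are unknown, and the Grow and OIS maps come from another data set.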
